A study of Mus musculus with 8 samples.

Results

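Matrix metalloproteinases (MMPs) and the tissue inhibitors of metalloproteinases (TIMPs) were examined as 9 genes, Mmp2, Mmp7, Mmp9, Mmp14, Mmp15, Mmp24, Timp1, Timp2 and Timp3, of the 17326 genes with all 8 counts in the deposited table. They were chosen by symbol, and Mmp7 was chosen for its higher level in knockout podocytes, so its values are a description with no test. A further 16 MMP and TIMP genes were on complete lines of the table and serve as a comparison. All 9 members passed the filter on low counts, but Mmp7, with 12 counts or fewer in 7 of the 8 libraries, passed through its level in KO podocytes. It is therefore left out of every test and count of calls.

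The study sequenced polyadenylated RNA from mouse kidney cells separated by fluorescence-activated cell sorting. Glomerular endothelium and podocytes were each sorted from EMCN+/+ mice (wild type, WT) and from EMCN-/- mice (knockout, KO), which lack both functional copies of Emcn, the gene of endomucin, a sialomucin of the endothelial surface coat. This gave 4 groups of 2 libraries, numbered 2 and 3 in each group: WT endothelium, KO endothelium, WT podocyte and KO podocyte. The labels name no Cre driver, treatment, age or sex, no sorting marker, and do not say whether libraries came from separate animals, so p-values measure only the spread between these libraries, which may be technical.

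MMPs are zinc-dependent endopeptidases that cut extracellular matrix and cell surface proteins. They are made as inactive proenzymes and become active when the prodomain is removed, and TIMPs block the active site. In the glomerulus both sets of proteins act on the basement membrane shared by the endothelium and the podocytes.

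Libraries held 10478956 to 17386042 counts on complete lines. Emcn, the check of genotype, was at 1972 and 1828.3 CPM (counts divided by the library's TMM-scaled size and set to a common total) in WT endothelium and at 173.4 and 179 CPM in KO endothelium, a log2 fold change of -3.43 (SE 0.345, edgeR adjusted p = 0.0205). It was at 74.1 and 35.9 CPM in WT podocytes and at 5.59 and 4.94 CPM in KO podocytes, a log2 fold change of -3.38 (SE 0.357, edgeR adjusted p = 0.0321). The sorted types carried their markers. Of 14 endothelial markers, Pecam1, Cdh5, Kdr and Tek among them, 12 were called higher in WT endothelium than in WT podocytes and 1, Cldn5, was called lower. All 10 podocyte markers on complete lines, Synpo and Podxl among them, were called higher in podocytes in both genotypes. WT endothelium replicate 3 stood apart from the other libraries on the second principal component (18.6% of variance), and KO podocyte replicate 2 stood apart in Mmp7, so results on the members are also given without that library where the call or the value moves with it. With WT endothelium replicate 3 left out, 11 endothelial markers were called higher and 0 lower and 9 podocyte markers were called in WT mice. The Emcn values without it were -3.49 and -3.39 (edgeR adjusted p = 0.0838 and 0.0697), and without KO podocyte replicate 2 the podocyte value was -3.48 (edgeR adjusted p = 0.558). Those calls of Emcn were thus lost, with the direction and size kept. In RNA from sorted pools, fewer expressing cells and less RNA per expressing cell cannot be told apart.

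Per kilobase of transcript, the scale on which genes can be set side by side, 1 inhibitor outweighed all other members. Timp3 took 82.2% to 95.9% of the summed level of the 9 genes in each library, and the 6 MMPs together took 2.04% to 3.99%. The summed level of the 3 TIMPs was 24.1 to 47.9 times that of these 6 MMPs. Among the 6 MMPs, Mmp2 and Mmp14 together held 69.2% to 98% of the level per kilobase. The lowest of these shares was in KO podocyte replicate 2, where Mmp7 was high, and without that library the lowest was 81.2%. These shares hold for the 9 members and not for the whole family. Over all 25 MMP and TIMP genes on complete lines, Mmp23, which is no member, was the highest MMP per kilobase in all 8 libraries, at 28.4% to 48.1% of the summed level of 21 MMPs in endothelium and 71.4% to 87.9% in podocytes. Mmp2 and Mmp14 together then held 19.4% to 41.6% in endothelium and 5.94% to 15.2% in podocytes. All 4 TIMPs together were then at 10.2 to 11.2 times the summed level of the MMPs in endothelium and 2.52 to 5.59 times in podocytes. Timp3 was still the highest gene, at 66.3% to 89.9% of the family's level.

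**Figure D1:**
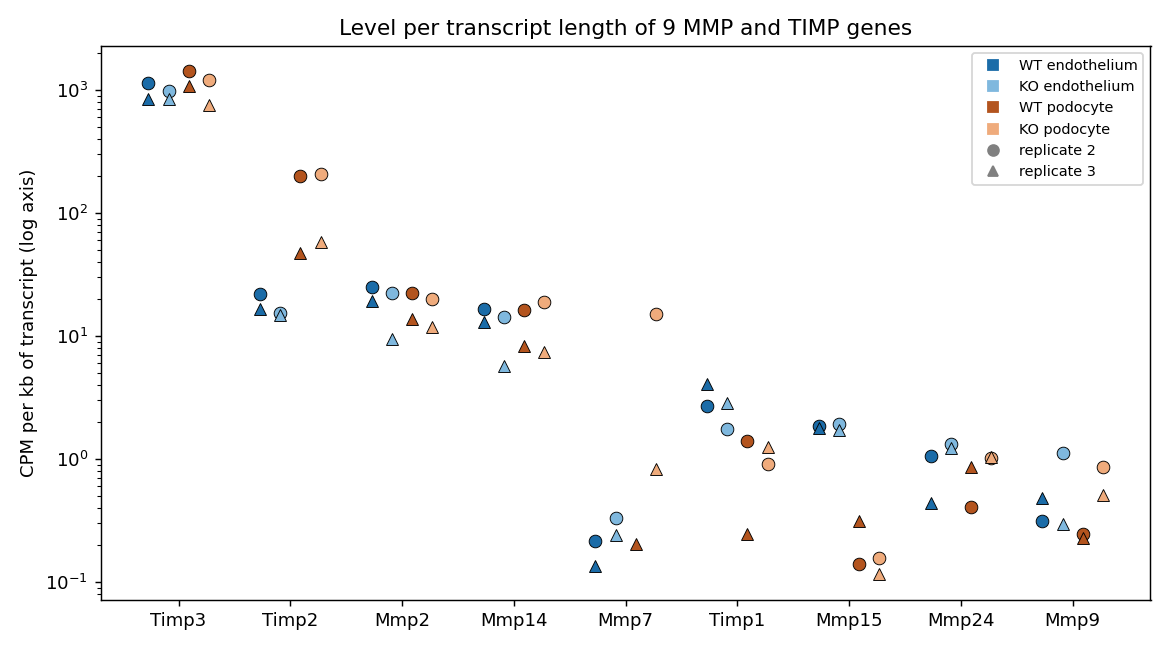
Level of each member in CPM per kilobase of its longest protein-coding GENCODE transcript, on a log axis, with colour for group and symbol for replicate. Timp3 is the highest member in all 8 libraries and Mmp7 lies below 1 in all but KO podocyte replicate 2, and the count of 0 for Mmp7 in WT podocyte replicate 2 cannot be drawn on this axis.

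Mmp2, gelatinase A, cuts denatured collagens and the collagen IV of basement membranes, and its gene lies at chr8:92827290-92853421 (GRCm38). It was at 77.5 and 59.5 CPM in replicates 2 and 3 of WT endothelium, 69.0 and 28.9 in KO endothelium, 69.0 and 42.0 in WT podocytes and 61.0 and 36.1 in KO podocytes. Replicate 2 was above replicate 3 in every group, and each group's libraries overlapped those of the next group in the order of means. Mmp14 encodes the membrane-type enzyme that activates the Mmp2 proenzyme at the cell surface, from chr14:54431598-54442456 (GRCm38). Its values were 53.9 and 42.3 CPM in WT endothelium, 46.5 and 18.4 in KO endothelium, 52.8 and 26.8 in WT podocytes and 60.8 and 24.0 in KO podocytes. Here too replicate 2 was the higher in all 4 groups and neighbouring groups overlapped.

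Mmp2 and Mmp14 varied with each other from library to library. Across the 8 libraries, Pearson's r of their log2 CPM was 0.954 and Spearman's rho 0.857, and r was 0.844 without the 2 libraries farthest from the median of Mmp2. These points share their library and its scaling, and the correlation is a description. Mmp14 was the third most correlated gene with Mmp2 among 9958 genes searched, after Tent2 (r = 0.961) and Dcp1a (r = 0.956), and Uba2 (r = 0.965) and Donson (r = 0.963) were the closest to Mmp14. The ratio of Mmp2 to Mmp14 per kilobase stayed between 1.06 and 1.65 in all 8 libraries.

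The higher level in replicate 2 was shared by 4 of the 9 members, Mmp2, Mmp14, Timp2 and Timp3, in all 4 groups, beside 11.6% of all genes. The share of counts from mitochondrial genes was lower in replicate 2 than in replicate 3 in every group, at 10.1% to 13.3% against 16.9% to 26.2%. The summed level of 8 mesangial, mural and fibroblast markers, of 14 listed and none at 0 counts, was higher in replicate 2 in every group, at 547.7 to 1271.8 against 334.4 to 957.7 CPM. Much of this was Itga8, the most abundant of them. Without it the other 7 were at 217.6 against 196.3 CPM in WT endothelium and 214.2 against 164.5 in KO endothelium. In podocytes they were at 579.1 against 577.5 CPM in WT and 816.5 against 396.8 in KO. The summed level of 10 distal tubule and collecting duct markers, of 16 listed and none at 0, was lower in replicate 2 in every group, at 3124.0 to 7300.9 against 6945.1 to 16024.7 CPM. Umod, the uromodulin gene, was the most abundant of them, and without it the other 9 were lower in replicate 2 in 3 groups and higher in KO podocytes (4860.2 against 3294.9 CPM). Their part in the levels of Mmp2 and Mmp14 was not tested.

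Of the MMPs tested among the members, Mmp15 was the 1 called between cell types. Like Mmp14, it encodes an enzyme anchored in the plasma membrane, and its gene lies at chr8:95352296-95374293 (GRCm38). It was at 9.57 and 9.12 CPM in WT endothelium, 9.87 and 8.86 in KO endothelium, 0.713 and 1.60 in WT podocytes and 0.808 and 0.590 in KO podocytes. All 4 endothelial libraries lay above all 4 podocyte libraries, and the genotypes overlapped within each cell type. Mmp15 was 8.09-fold higher in endothelium than in podocytes of WT mice (log2 fold change 3.02, SE 0.513, edgeR adjusted p = 0.0035) and 13.2-fold higher in KO mice (3.72, SE 0.538, edgeR adjusted p = 0.00144). It was called in every alternative and with any library left out, with WT endothelium replicate 3 left out at 3.05 (edgeR adjusted p = 0.0169). Tspan9, a tetraspanin, and Ackr2, an atypical chemokine receptor, had the patterns most like it over the 8 libraries (r = 0.994 and 0.992).

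Mmp24, a membrane-type enzyme best known from neurons, was at 4.56 and 1.88 CPM in WT endothelium, 5.64 and 5.25 in KO endothelium, 1.75 and 3.70 in WT podocytes and 4.35 and 4.50 in KO podocytes. The KO libraries were above the WT libraries in both cell types, and the WT libraries differed more between themselves than the KO libraries did. The edgeR log2 fold change of KO against WT was 0.76 in endothelium (SE 0.567, edgeR adjusted p = 0.727) and 0.70 in podocytes (SE 0.569, edgeR adjusted p = 0.978), so neither passed the test. Without WT endothelium replicate 3 the endothelial value was 0.25, and without WT endothelium replicate 2 it was 1.52, with neither called. Without WT podocyte replicate 2 the podocyte value was 0.28 and without replicate 3 it was 1.33, again with neither called.

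Mmp9, gelatinase B, is abundant in neutrophils and macrophages. It was at 0.988 and 1.52 CPM in WT endothelium, 3.53 and 0.946 in KO endothelium, 0.778 and 0.726 in WT podocytes and 2.73 and 1.62 in KO podocytes, with 10 to 50 counts a library. In podocytes both KO libraries were above both WT libraries, and in endothelium the genotypes overlapped. The fitted podocyte log2 fold change was 1.53 (SE 0.779, edgeR adjusted p = 0.978). The summed level of 13 neutrophil, macrophage and lymphoid markers, of 20 listed and none at 0 counts, was 106 and 99.6 CPM in WT podocytes and 135.9 and 109.6 CPM in KO podocytes. Csf1r, a macrophage receptor gene, made up most of it in podocytes, and the other 12 summed to 31.6 and 31.7 CPM in WT and 29.0 and 33.2 CPM in KO podocytes. Its part in the Mmp9 values was not tested.

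**Figure D2:**
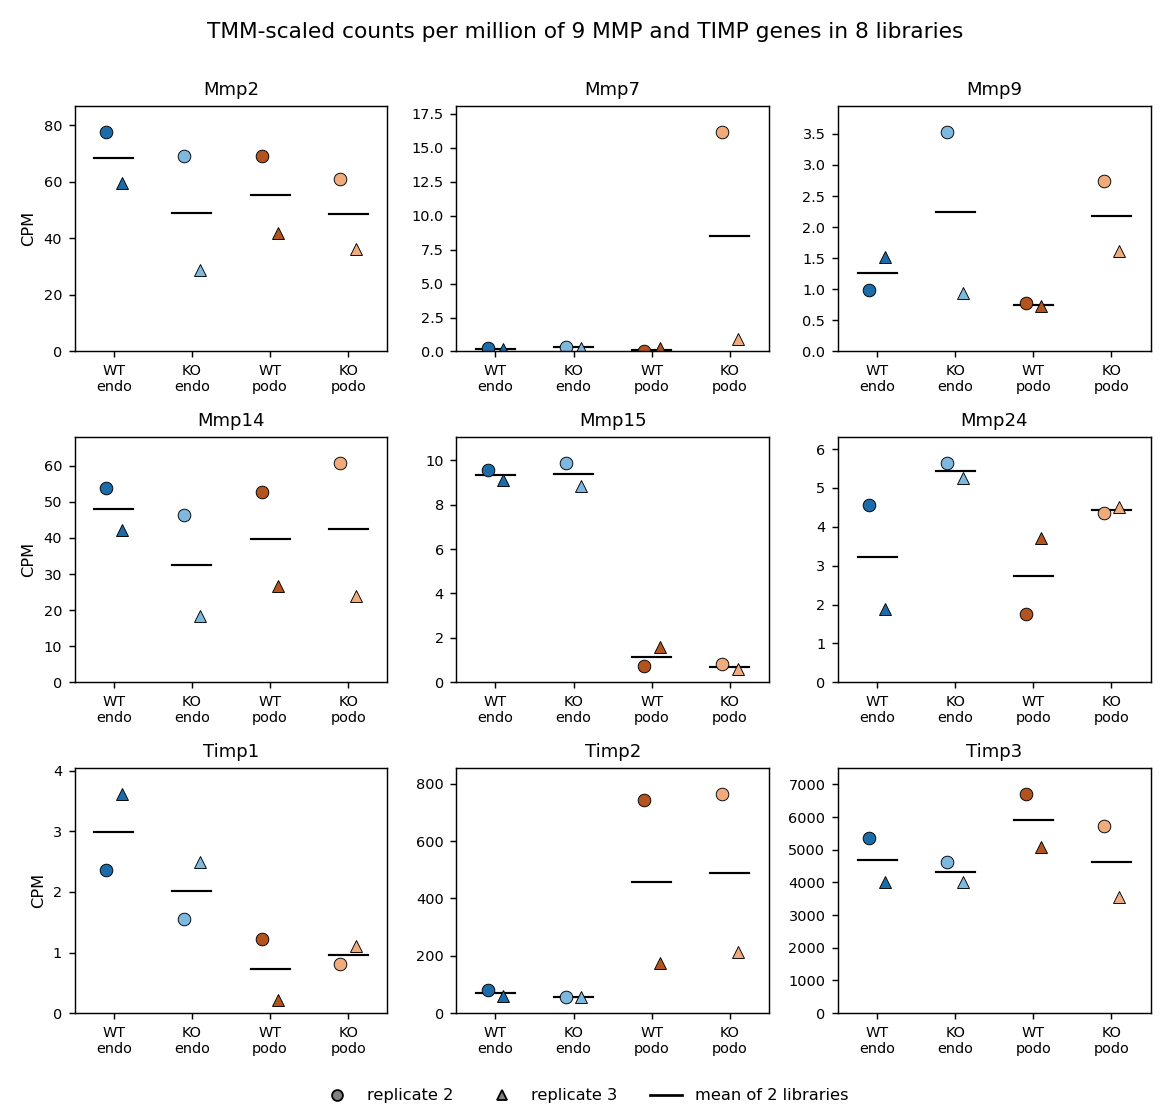
CPM of the 9 members in the 8 libraries, 1 panel a gene with its own axis from 0, circles for replicate 2, triangles for replicate 3 and a line at the mean of each pair. Mmp15 and Timp2 differ between the cell types, Mmp2 and Mmp14 have replicate 2 above replicate 3 in every group, and a single library carries most of Mmp7.

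Timp3, the inhibitor that binds to the matrix rather than staying soluble, was the most abundant member (chr10:86300412-86349505, GRCm38). It was at 5367.4 and 3998.9 CPM in WT endothelium, 4629.0 and 4014.0 in KO endothelium, 6710.1 and 5095.8 in WT podocytes and 5712.6 and 3554.1 in KO podocytes. Neighbouring groups overlapped throughout the order of means. No contrast passed the test. Fitted log2 fold changes between groups ran from -0.35 (KO against WT podocytes) to -0.10 (endothelium against podocytes in KO), and the difference between the genotype effects was 0.23. Timp3 overlaps Syn3 in RefSeq, and 6 of the 9 members overlap another gene, Timp2 among them (Cep295nl). The use of strand in counting is not given in the sources used here, so reads of overlapping genes cannot be told apart.

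Timp2, which inhibits MMPs and also bridges the Mmp2 proenzyme to Mmp14 for activation, lies at chr11:118301061-118355411 (GRCm38). It was at 80.8 and 60.8 CPM in WT endothelium and 56.9 and 54.6 in KO endothelium. In podocytes it was at 741.8 and 174.9 CPM in WT and at 764.4 and 214.7 in KO. Every podocyte library was above every endothelial library, and within podocytes replicate 2 was 4.24 times replicate 3 in WT and 3.56 times in KO. In WT mice Timp2 was 6.48-fold lower in endothelium than in podocytes (log2 fold change -2.70, SE 0.670, edgeR adjusted p = 0.0296), and in KO mice 8.78-fold lower (-3.13, SE 0.683, edgeR adjusted p = 0.0146).

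The Timp2 calls rested on few libraries. In WT mice the call was lost without WT podocyte replicate 2 (-1.29, edgeR adjusted p = 0.379), without WT endothelium replicate 2 (-2.92, edgeR adjusted p = 0.112) or without WT endothelium replicate 3 (-2.51, edgeR adjusted p = 0.199). In KO mice it was lost without KO podocyte replicate 2 (-1.95, edgeR adjusted p = 0.0957), KO endothelium replicate 2 (-3.17, edgeR adjusted p = 0.0774) or KO endothelium replicate 3 (-3.11, edgeR adjusted p = 0.0714). The direction was the same in each. The summed level of 10 podocyte markers, of 15 listed and none at 0, was 19742.0 and 12888.2 CPM in WT podocytes and 9019.5 and 12400.0 in KO podocytes. It was thus higher in replicate 2 in WT, as Timp2 was, and lower in replicate 2 in KO, and its part in the Timp2 values was not tested.

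The ratio of Timp2 to Mmp14 per kilobase was 1.07 to 2.59 in the endothelial libraries and 5.70 to 12.3 in the podocyte libraries. It is a ratio of transcript levels, and its ranges did not overlap between cell types. Wdfy3 (r = 0.986) and Usp22 (r = 0.984) followed Timp2 most closely over the 8 libraries.

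Timp1, a soluble inhibitor that is induced in many injured tissues, was at 2.36 and 3.62 CPM in WT endothelium, 1.55 and 2.49 in KO endothelium, 1.23 and 0.218 in WT podocytes and 0.808 and 1.11 in KO podocytes. The endothelial libraries were above the podocyte libraries in both genotypes. In WT mice the log2 fold change was 2.02 (SE 0.813, unadjusted p = 0.0317, edgeR adjusted p = 0.194), which did not pass the test, and in KO mice it was 1.07 (SE 0.799, edgeR adjusted p = 0.477). The WT value was 3.73 without WT podocyte replicate 2 (edgeR adjusted p = 0.0843) and 1.27 without WT podocyte replicate 3 (edgeR adjusted p = 0.458). WT podocyte replicate 3 held 3 counts, and Timp1 overlaps Syn1 in RefSeq.

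**Figure D3:**
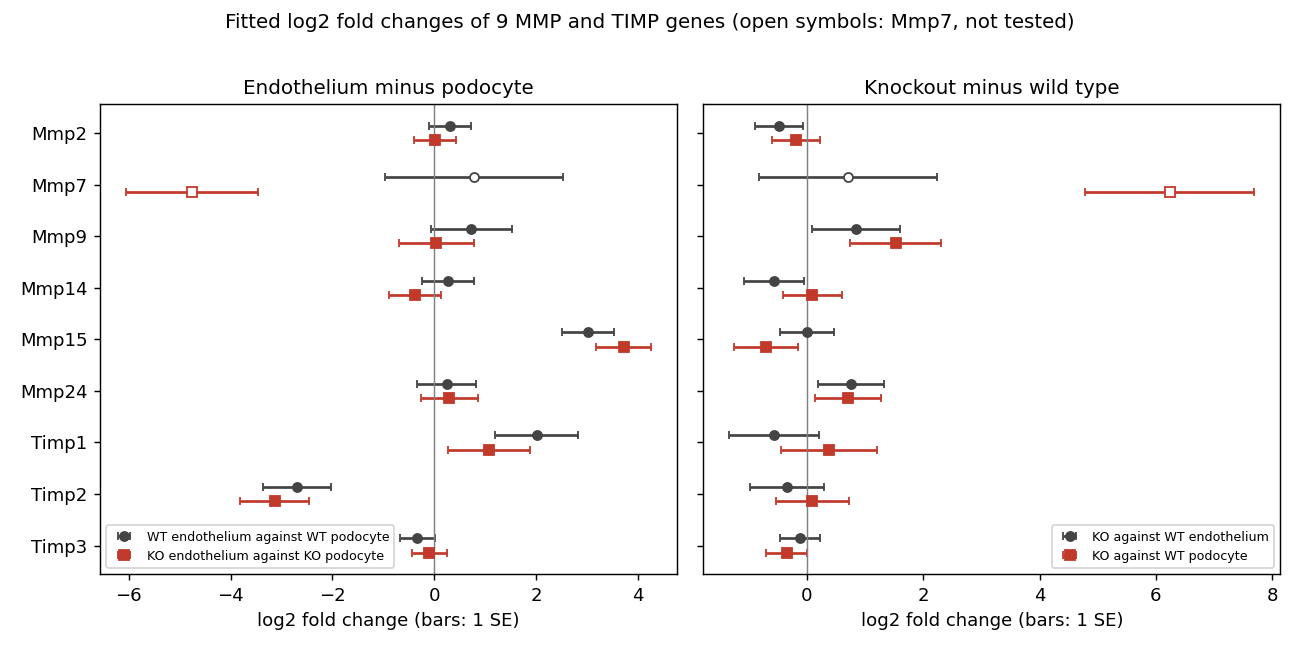
Fitted log2 fold changes of the members with bars of 1 SE, endothelium minus podocyte on the left and knockout minus wild type on the right. Mmp15 and Timp2 stand off 0 in both genotypes on the left, whereas on the right no tested member was called, and the open symbols mark Mmp7, which was not tested.

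Between cell types, 1 of 8 tested members was called higher in endothelium (Mmp15) and 1 lower (Timp2) in WT mice, where 8.99% of all 16477 genes were called (4.26% higher, 4.73% lower). The same members were called in KO mice, 1 in each direction, where 10.4% of all genes were called (4.28% higher, 6.09% lower). Of all genes called in KO mice 41.3% were higher in endothelium, and 60.6% with scaling by library size only. At an unadjusted edgeR p under 0.05 there were 3 members in WT and 2 in KO mice, beside 19.6% and 22.9% of genes. Without overlap of libraries, Mmp9, Mmp15 and Timp1 were above and Timp2 below in WT endothelium, 4 of 8 members beside 46.9% of genes (21.2% above, 25.7% below). In KO endothelium Mmp15, Mmp24 and Timp1 were above and Timp2 below, 4 of 8 beside 55% of genes (27.3% above, 27.8% below). The members' median log2 fold change was 0.29 in WT and 0.03 in KO mice, against -0.01 over all genes in each. The shares of members without overlap were close to these backgrounds.

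For genotype, none of the 8 tested members was called in endothelium, where Emcn was the 1 gene called of all (0.00607%), and the smallest edgeR adjusted p among the members was 0.727. In podocytes none of 8 was called, again against 0.00607% of genes, and the smallest edgeR adjusted p was 0.978. In both comparisons 0 members had an unadjusted edgeR p under 0.05, where 5.49% and 4.43% of all genes did. Mmp24 was above WT in KO endothelium without overlap and Timp2 was below, 2 of 8 members beside 44.5% of genes (24.8% above, 19.7% below). Mmp9 and Mmp24 were above WT in KO podocytes without overlap, 2 of 8 members beside 31.2% of genes (15.1% above). The difference between the genotype effects in endothelium and in podocytes was called for 0 of 8 members and for 0% of genes, with fitted values from -0.94 to 0.70 (edgeR adjusted p = 1 for each), and 0 members had an unadjusted p under 0.05, beside 2.6% of genes. DESeq2 called 0 members for genotype, beside 0.0355% of genes in endothelium and 0.0462% in podocytes, and 0 for this difference.

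Mmp7, matrilysin, is a short secreted enzyme without the hinge and hemopexin domain of other MMPs. In the kidney it is known as a product of injured tubular epithelium and as a target of beta-catenin. Its RefSeq gene (Entrez 17393) lies at chr9:7692090-7699585 in GRCm38, the build behind mm10, and overlaps AV064505. Its counts in replicates 2 and 3 were 3 and 2 in WT endothelium, 5 and 3 in KO endothelium, 0 and 3 in WT podocytes and 260 and 12 in KO podocytes. KO podocyte replicate 2 held 260 of all 288 Mmp7 counts (90.3%), and the other 7 libraries held 0 to 12.

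As CPM, Mmp7 was at 16.2 in KO podocyte replicate 2 and at 0.885 in replicate 3, an 18.3-fold difference between libraries of 1 group (95% exact counting interval 10.3 to 35.8). Both were above the WT podocyte libraries at 0 and 0.218 CPM, so the groups did not overlap, on the contrast for which Mmp7 was chosen (15.1% of all genes were above without overlap). The ratio of KO to WT podocytes was 89.3 (95% counting interval 30.2 to 435.6, from 272 and 3 counts). With KO podocyte replicate 3 alone against both WT libraries it was 8.61 (95% counting interval 2.33 to 47.6, from 12 and 3 counts). These intervals cover counting error only, not the spread between libraries, and they are no test of a gene that was chosen for this difference.

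The fitted log2 fold change of Mmp7 in podocytes was 6.24, and it was 2.96 without KO podocyte replicate 2. Without WT podocyte replicate 3 no fold is given, because the WT library left has 0 counts. Of all 16477 genes, Mmp7 was the one in which KO podocyte replicate 2 most exceeded the next highest library, by 3.99 on the log2 CPM scale, and 15 genes exceeded it by 2 or more. This rank rests on the level for which Mmp7 was chosen, so it restates that choice and is a description only. In endothelium Mmp7 was at 0.353 and 0.258 CPM in KO and at 0.228 and 0.145 CPM in WT, from 8 and 5 counts in all, and no test is given.

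Other transcripts stood high in the same library. The summed level of 5 proximal tubule markers, of 13 listed, was 1438.0 CPM in KO podocyte replicate 2 and 78.9 to 719.1 in the other 7 libraries. That of 9 injured tubule markers, of 9 listed, was 11740.8 CPM there and 2716.2 to 8087.7 elsewhere. Spp1, the osteopontin gene, gave 10076.1 CPM of it, and the other 8 summed to 1664.8 CPM in that library, the lowest of the 4 podocyte libraries. That of 13 parietal epithelial markers, of 13 listed, was 3221.7 CPM there and 630 to 1803.1 elsewhere. None of these markers was at 0 counts in any library. Without the most abundant gene of each list, Miox and Pax8, the proximal tubule and parietal lists were still highest there, at 609.1 and 2596.2 CPM. The mesangial, mural and fibroblast list was also highest there, at 1271.8 CPM against 334.4 to 995.2 elsewhere, and at 816.5 against 164.5 to 579.1 without Itga8, its most abundant gene. Not every list was high there, and the distal tubule and collecting duct list, at 6085.5 CPM, was the lowest of the 4 podocyte libraries (6197.2 to 12888.4 in the others). Without Umod, its most abundant gene, that list was at 4860.2 CPM there, within the 3294.9 to 6870.8 CPM of the other podocyte libraries. Podocyte markers summed to 9019.5 CPM in that library, the lowest of the 4 podocyte libraries. Havcr1, the first of the injured tubule list, had 197 counts there and 4 to 41 elsewhere, unlike the summed level of that list without Spp1. The part of these transcripts in the Mmp7 value was not tested.

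**Figure D4:**
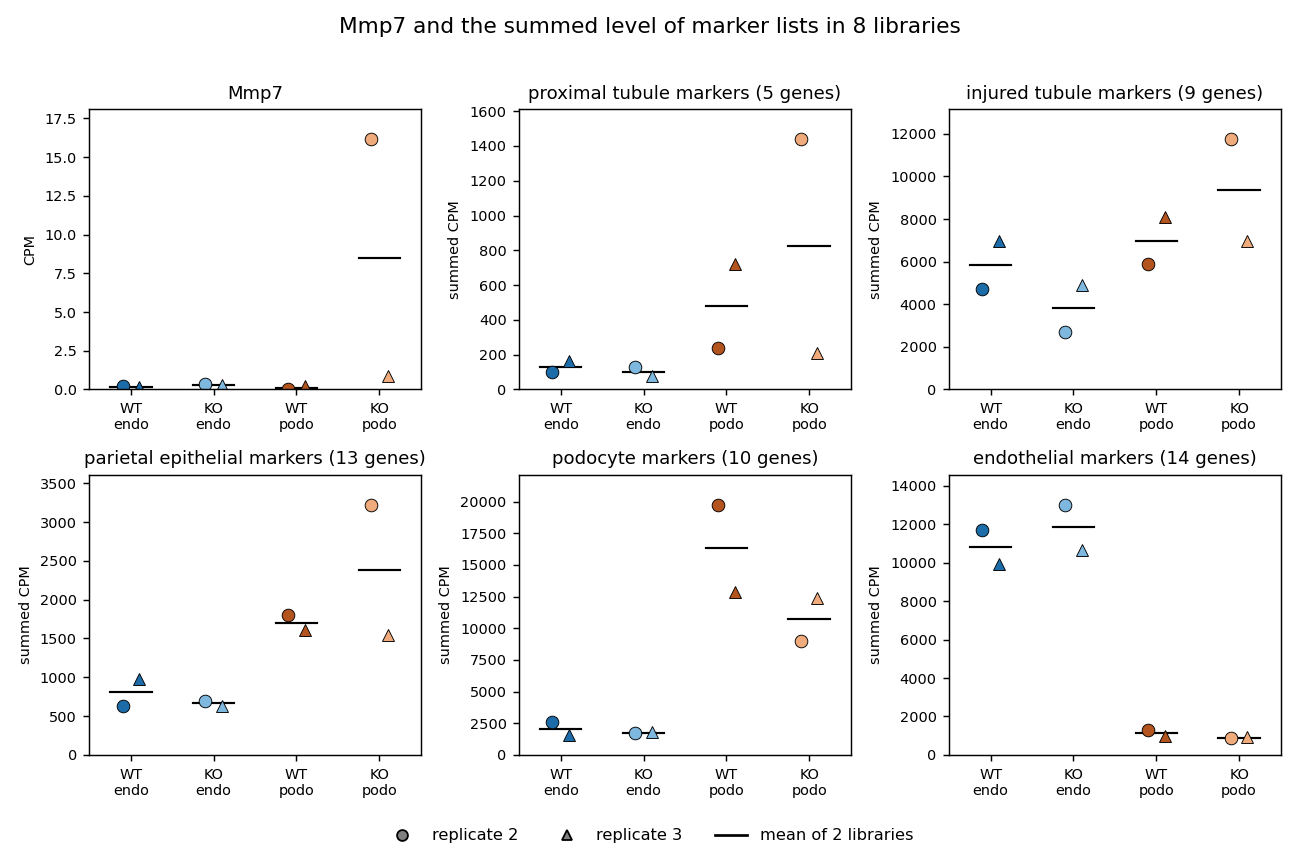
CPM of Mmp7 and the summed CPM of 5 marker lists in the 8 libraries, with circles for replicate 2, triangles for replicate 3 and a line at the mean of each pair. KO podocyte replicate 2 is the highest library for Mmp7 and for the proximal tubule, injured tubule (mostly Spp1) and parietal epithelial lists, and the lowest podocyte library for podocyte markers.

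Among the genes with the pattern most like Mmp7 over the 8 libraries were D630045J12Rik (r = 0.944), Klhdc8a (r = 0.930), Rnf32 (r = 0.922) and Papss2 (r = 0.919). Over 8 points with 1 library far above the rest, such an r is set mostly by that library, and it is given as a description. Spearman's rho was 0.571, 0.619, 0.762 and 0.714 in the same order.

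Of 21 listed Wnt and beta-catenin target genes, 16 were on complete lines and tested. None was called for genotype in podocytes, beside 0.00607% of all genes, and 11 of 16 had a log2 fold change above 0 with a median of 0.48, against 0.02 over all genes. Without KO podocyte replicate 2 these were 10 of 16 with a median of 0.30 (0.005 over all genes). Fst, encoding follistatin, was at 18.5 and 17.9 CPM in WT podocytes and at 134.9 and 22.6 in KO podocytes, so that here too KO podocyte replicate 2 was the high library (log2 fold change 2.11, SE 0.633, edgeR adjusted p = 0.978). Without that library the Fst value was 0.31 (edgeR adjusted p = 0.879). Rnf43, which removes Wnt receptors from the surface, had a log2 fold change of 0.85 (SE 0.259, edgeR adjusted p = 0.978). The abundant members Ccnd1 and Bambi were at 0.56 and -0.57. In endothelium none of 16 was called, with a median of -0.09 against 0.01 over all genes. Without WT endothelium replicate 3 that median was 0.013 (0.001 over all genes). Between cell types, Lef1, Lgr5 and Ccnd1 were called higher in WT endothelium and Fst lower, and in KO mice Lef1 and Ccnd1 were called higher and Myc and Fst lower, 4 of 16 in each genotype beside 8.99% and 10.4% of all genes. In WT mice Lgr5 and Ccnd1 were called without WT endothelium replicate 3, and without KO podocyte replicate 2, Ccnd1 and Fst were called in KO mice.

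Promoter sequences, from 250 bases before to 50 after a RefSeq start (GRCm38.p6), were found for 7 of the 9 members. Those of Mmp7 and Timp3 are shown because these members had the least even and the highest levels. The first is chr9:7691840-7692139 (the first of 2 RefSeq starts of Mmp7), the second chr10:86300162-86300461, both on the plus strand. Capitals mark matches to TGANTCA, a loose form of the AP-1 motif with any base in its middle, and to TATAAA, the TATA box.
Mmp7: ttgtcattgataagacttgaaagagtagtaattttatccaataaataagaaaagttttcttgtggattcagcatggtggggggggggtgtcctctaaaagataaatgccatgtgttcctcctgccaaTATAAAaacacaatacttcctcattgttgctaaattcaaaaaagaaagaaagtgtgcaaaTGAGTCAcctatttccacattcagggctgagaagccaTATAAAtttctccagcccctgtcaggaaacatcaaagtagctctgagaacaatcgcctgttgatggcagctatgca
Timp3: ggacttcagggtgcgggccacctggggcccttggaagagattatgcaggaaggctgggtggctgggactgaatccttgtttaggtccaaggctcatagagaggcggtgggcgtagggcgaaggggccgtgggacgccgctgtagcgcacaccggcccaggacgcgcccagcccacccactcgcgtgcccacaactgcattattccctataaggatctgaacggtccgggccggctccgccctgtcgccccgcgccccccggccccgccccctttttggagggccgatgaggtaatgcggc

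The first Mmp7 window held 1 match to TGANTCA and 2 to TATAAA. Both motifs were searched on both strands and do not overlap each other. Among 32851 RefSeq promoters of this length, 7.81% held TGANTCA and 13.6% held TATAAA. The Timp3 window, and those of Mmp14, Mmp15, Mmp24, Timp1 and Timp2, held neither. The window of the second Mmp7 start, chr9:7692091-7692390, also held neither, with a GC content of 52% and 7 CG dinucleotides. The GC content was 39% for the first Mmp7 window with 1 CG dinucleotide and 67% for Timp3 with 24, against medians of 52.7% and 7 over all promoters. A match is a description of letters, not a site in use.

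The other MMP and TIMP genes gave a wider view of the family. Of 18 listed, 16 were on complete lines and 15 were tested, and none was called for genotype in either cell type, beside 0.00607% of all genes in each. Between cell types 2 of 15 were called in WT and 4 of 15 in KO mice, beside 8.99% and 10.4% of all genes. Mmp23, a membrane-bound enzyme with an unusual domain layout, was the most abundant of them. It was called lower in endothelium than in podocytes, at 54.9 ± 15.2 CPM (SD, n = 2) in WT endothelium and 431.8 ± 117.3 CPM (SD, n = 2) in WT podocytes. Its log2 fold change was -2.98 (SE 0.339, edgeR adjusted p = 0.000295) in WT and -2.84 (SE 0.337, edgeR adjusted p = 0.000437) in KO mice. It overlaps Mib2 in RefSeq, and reads of the 2 genes could be split between them. Mmp28, epilysin, was called higher in endothelium, with log2 fold changes of 2.97 in WT (SE 0.719, edgeR adjusted p = 0.026) and 2.97 in KO mice (SE 0.693, edgeR adjusted p = 0.0206). It held only 3 and 9 counts in WT podocytes and 13 and 6 in KO podocytes. Mmp28 thus passed the filter on low counts through endothelium, where it is high. Its calls, which are in the counts above, are therefore a description. In KO mice Mmp8, the neutrophil collagenase, and Mmp12, the macrophage elastase, were also called higher in endothelium. Mmp8 held 25 and 41 counts in KO endothelium and 5 and 1 in KO podocytes, beside 28 and 17 in WT podocytes. It was not called in WT mice (log2 fold change 0.28, edgeR adjusted p = 0.896). Mmp12 held 242 and 56 counts in replicates 2 and 3 of KO endothelium and 17 and 28 in KO podocytes. The 13 neutrophil, macrophage and lymphoid markers summed to 77.9 and 72.6 CPM in KO endothelium and 135.9 and 109.6 CPM in KO podocytes, and the 12 other than Csf1r to 67.5 and 60.3 against 29.0 and 33.2 CPM. Of the 12 tested, Ltf, the lactoferrin gene of neutrophils, was called higher in KO endothelium (log2 fold change 2.25, SE 0.474, edgeR adjusted p = 0.0123) and Csf1r lower, beside 10.4% of all genes. In WT mice too Ltf was called higher in endothelium (3.29, SE 0.495, edgeR adjusted p = 0.00163) and Csf1r lower, beside 8.99% of all genes. Without KO podocyte replicate 2 the calls of these markers in KO mice were Lyz2 higher and Csf1r lower. Their part in the Mmp8 and Mmp12 values was not tested. Leaving out WT endothelium replicate 3, Mmp23 was at -2.72 in WT mice and still called (edgeR adjusted p = 0.00483), and Mmp28 was at 3.10 and lost its call (edgeR adjusted p = 0.0691). Without KO podocyte replicate 2, Mmp23 and Mmp8 were called in KO mice. Mmp28 was at 3.47 (edgeR adjusted p = 0.0653) and Mmp12 at 2.40, from 2.82 with all libraries (edgeR adjusted p = 0.16 without the library), so both lost the call with a difference of like size.

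Genes that activate, bind or restrain MMPs were covered by 15 of 25 listed genes. None was called for genotype, beside 0.00607% of all genes, and 5 and 4 of 15 were called between cell types in WT and KO mice, beside 8.99% and 10.4%. In WT mice Itgb3, an integrin subunit that pairs with Itgav, was called higher in endothelium (log2 fold change 3.21, SE 0.330, edgeR adjusted p = 0.000173). Itgav, the proprotein convertase Pcsk6, the tetraspanin Cd151 and Reck, a membrane-anchored MMP inhibitor, were called lower in endothelium. In KO mice Itgb3 was again higher and Pcsk6, Cd151 and Itgav lower. The WT calls without WT endothelium replicate 3 were Itgb3, Itgav and Pcsk6, and without KO podocyte replicate 2 the KO calls were these same genes. Bsg, the glycoprotein that induces MMPs, was the most abundant of the list and was not called between cell types (log2 fold change -0.13 in WT, edgeR adjusted p = 0.867). The list's median log2 fold change was 0.05 between WT and 0.28 between KO cell types, against -0.01 over all genes in each, and the WT median was 0.25 without WT endothelium replicate 3.

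Substrates of MMPs in the glomerular matrix and cell surface were covered by 13 of 28 listed genes, and none was called for genotype, beside 0.00607% of all genes. Between cell types 6 of 13 were called in WT and 7 of 13 in KO mice, beside 8.99% and 10.4% of all genes. In WT mice Hspg2, the gene of perlecan, and Cdh5 were called higher in endothelium, and Agrn, Sparc, Sdc4 and Dag1 were called lower. In KO mice Hspg2 and Cdh5 were called higher and Lamb1, Agrn, Sdc1, Sdc4 and Dag1 lower. Without WT endothelium replicate 3 the WT call of Sparc was lost, and without KO podocyte replicate 2 the KO calls of Lamb1 and Sdc1 were lost and Nid1 was called higher. Dag1, the dystroglycan gene, was at -2.91 in WT mice (SE 0.430, edgeR adjusted p = 0.00147). The list's median log2 fold change was -0.24 in WT and -0.63 in KO mice, against -0.01 over all genes in each. The WT median was -0.48 without WT endothelium replicate 3, and without KO podocyte replicate 2 the KO median was -0.77.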

How the data were processed

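RNA of 8 sorted mouse kidney samples was sequenced from TruSeq libraries, per the labels. The authors deposited read counts for each Entrez gene, not normalized. For 3 of the 8 deposited columns the unit was entered as other, solely because short lines left cells unreadable. The submitters' processing notes name mm10 and DESeq2. The aligner, the counting tool, the annotation and the use of strand are not given in the sources used here. Of 22533 lines, 17326 held all 8 counts. The other 5207 (23.1%), broken by commas in the gene description, were not used, and 617 complete lines had no symbol.

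Counts were fitted with edgeR 4.0.16 in R 4.3.3 after filterByExpr (16477 genes) and TMM scaling, with 1 mean per group over 8 libraries, quasi-likelihood F tests and Benjamini-Hochberg adjustment over all genes at a threshold of 0.05. SEs were taken as |log2 fold change| over the root of the F statistic. CPM used TMM-scaled library sizes, log2 CPM a prior count of 2, and levels per kilobase the longest protein-coding GENCODE vM21 transcript. The code was tested on simulated data. Alternatives covered scaling, filter, DESeq2 1.42.0, libraries in the fit, a replicate block and leaving out each library. The planned test of Mmp7 in endothelium is not given, because Mmp7 passed the filter only through KO podocytes. List sums without their most abundant gene, shares over all 25 MMP and TIMP genes, and list calls without the 2 libraries that stood apart, were added after seeing the data. Members, lists and tests were chosen with earlier results of these data known. From each list, the genes named were the 2 with the highest mean CPM and the 2 with the smallest p in the contrast, and called genes were named as well. Genes of like pattern were ranked by Pearson's r among genes with a mean of at least 5 CPM. Some genes that these rules would name are not reported here.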

Additional observations from a re-analysis of the deposited data

How the results depend on the processing

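The number of members called between WT endothelium and WT podocytes fell from 2 to 1 with scaling by library size only and with the replicate block that swapped the podocyte numbers, an alternative chosen after seeing the data. In both, Timp2 lost its call, at -2.59 (edgeR adjusted p = 0.0537) and -2.35 (edgeR adjusted p = 0.0584). Leaving out 1 library at a time gave 1 to 2 members called in WT and 1 to 2 in KO mice, and each such fit assumes that the lone library of a group varies like the others. Mmp15 was called throughout, with edgeR and DESeq2 adjusted p-values over the alternatives from 2.69e-07 to 0.00781 in WT and from 2.52e-09 to 0.00448 in KO mice. In WT mice Timp2 kept a lower level in endothelium over those alternatives, from -2.70 to -2.35.

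The labels do not say that libraries of the same number are paired, and correlations of their deviations were between -0.13 and 0.19, with 1 of the 4 pairs of groups under 0.1. The main fit did not take the numbers to pair the libraries, and these correlations do not settle whether they do. With the replicate block as numbered, which changed no call of a member, Timp2 was at -2.41 in WT (edgeR adjusted p = 0.00437) and -2.82 in KO mice (edgeR adjusted p = 0.00182), the numbers of members called between cell types were 2 and 2, and the numbers of genes called moved from 1481 to 1831 and from 1709 to 2241. With the podocyte numbers swapped in the block they were 1357 and 1578.

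No value that was called changed sign. Of 329 values of members under alternatives other than leaving out a library, 10 changed sign, between -0.055 and 0.194. Of 360 values with 1 library left out, 37 changed sign, between -1.20 and 0.75, among them Timp2 in KO against WT podocytes (-1.10 without KO podocyte replicate 2) and Mmp9 between KO cell types (-1.20 without KO endothelium replicate 2). For KO against WT endothelium, Mmp15 was at -0.051 with DESeq2 size factors, -0.055 with DESeq2, -0.008 with no filter and -0.001 with the swapped block, and Timp3 was at 0.194 with scaling by library size and 0.041 with a mean of at least 5 CPM. For KO endothelium against KO podocytes, Mmp2 was at -0.048 and Mmp9 at -0.037 with the replicate block, and Timp3 was at 0.182 with scaling by library size and 0.068 with a mean of at least 5 CPM. That filter leaves out Mmp7, Mmp9, Mmp24 and Timp1, which have no value there. Over all genes, DESeq2 called 4 for genotype in endothelium and 8 in podocytes, against 1 and 1 with edgeR, and scaling by library size called 0 and 0. That scaling moved the median log2 fold change over all genes from 0.005 to 0.332 for genotype in endothelium, from 0.023 to 0.134 in podocytes and from -0.014 to 0.267 between KO cell types, and relative to that median Timp3 in endothelium was still slightly lower in KO. With few counts a library, differences in Mmp7, Mmp9 and Timp1 of a few fold are hard to detect. With 2 libraries a group, the genotype effects of the other members were imprecise too. Their SEs in podocytes ran from 0.346 for Timp3 to 0.627 for Timp2, so a member that was not called may still differ.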
